A study of Mus musculus with 6 samples.

Results

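Transcripts of the immunoglobulin kappa light chain were followed with 94 of the 55681 probes of a mouse whole-genome array. The probes were chosen by name: the file's gene name starts with Igk, or its description contains immunoglobulin and kappa, and names starting with Rbp were left out. The family itself was selected on measured values of these same arrays, namely the difference between populations within each dye and the ratio of KO over WT. The calls below are therefore given as a description, and nothing is read from them. Of the 94 probes, 88 were named for variable (V) segments, with 81 distinct names, all of them current RefSeq symbols.

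RNA of 4 groups was hybridised on 6 dual-colour Agilent arrays: Bmi1 KO multipotent progenitors (MPPs), wild-type (WT) MPPs, Bmi1 KO hematopoietic stem cells (HSCs) and WT HSCs, with 3 biological replicates each. Every array paired 1 KO sample in red (Cy5) with 1 WT sample of the same population in green (Cy3), and no array had the dyes exchanged. All mice were C57BL6 and 2 to 3 months old, and the cells were purified by FACS. The sequence deleted in the KO allele of Bmi1 is not given in the labels. All arrays lay on 1 slide, with the HSC arrays and MPP array 1 in 1 row and MPP arrays 2 and 3 in the other. A level below is a log2 background-corrected signal, comparable between arrays within 1 dye only, and a ratio is the log2 of KO over WT within 1 array.

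A kappa light chain is encoded by a V segment, a joining (J) segment and the constant region Igkc. In developing B cells the RAG recombinase joins a V to a J segment, and the messenger RNA of such a cell carries that V sequence spliced to Igkc. Unrearranged kappa sequence can also be transcribed before recombination, and plasma cells hold very large amounts of kappa messenger RNA. HSCs and MPPs lie upstream of the B lineage. V segments are grouped by sequence into subgroups, given by the first number of the name, so that Igkv4-73 and Igkv4-78 both belong to subgroup 4.

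By the positions in the files (mouse assembly mm9), 89 of the 94 probes mapped to the kappa locus on chromosome 6. A probe named ENSMUST00000103301 mapped outside the locus, at chr6:43031517-43031576 on the minus strand, and 4 probes had no position. The probes on which the results turn are printed 5′ to 3′. In a compared set the capitals mark bases that differ from the compared probe within the best ungapped overlap.

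The constant region probe (chr6:70676692-70676751, plus strand) is shown because it reads kappa transcripts whichever V segment they carry.
Igkc: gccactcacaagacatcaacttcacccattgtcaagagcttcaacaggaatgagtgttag

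The next set was well above background in every channel. Igkv2-109 (chr6:68253091-68253150, plus strand) and Igkv2-116 (chr6:68102545-68102604, plus strand) matched at 52 of 55 overlapping bases and are marked against each other. ENSMUST00000103301 matched Igkv2-109 at 50 of 58 bases and is marked against it.
Igkv2-109: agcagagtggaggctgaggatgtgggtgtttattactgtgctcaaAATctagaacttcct
Igkv2-116: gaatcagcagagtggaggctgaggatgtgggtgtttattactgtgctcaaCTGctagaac
ENSMUST00000103301: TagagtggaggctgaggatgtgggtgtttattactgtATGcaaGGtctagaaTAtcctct

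Probes of subgroup 4 moved together on the MPP arrays. Igkv4-73 (chr6:69147579-69147636, minus strand) and Igkv4-78 (chr6:69009686-69009743, minus strand) matched at 55 of 60 bases. The probe named U18580 (chr6:68992966-68993025, minus strand) also matched Igkv4-73 at 55 of 60 and is marked against it.
Igkv4-73: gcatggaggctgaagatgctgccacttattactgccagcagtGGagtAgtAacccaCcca
Igkv4-78: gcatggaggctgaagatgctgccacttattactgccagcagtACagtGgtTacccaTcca
U18580: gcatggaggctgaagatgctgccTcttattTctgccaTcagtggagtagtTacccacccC

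Igkv6-15 (chr6:70356463-70356522, minus strand) and Igkv6-13 (chr6:70407495-70407554, minus strand) matched at 55 of 60 bases and were both highest, among KO HSCs, in the same sample. Igkv8-28 (chr6:70093587-70093646, minus strand) and Igkv6-17 (chr6:70321926-70321985, plus strand) have names of different subgroups but matched at 52 of 58 bases.
Igkv6-15: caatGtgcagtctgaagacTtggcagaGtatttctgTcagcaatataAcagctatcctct
Igkv6-13: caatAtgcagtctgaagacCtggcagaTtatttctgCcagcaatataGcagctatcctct
Igkv8-28: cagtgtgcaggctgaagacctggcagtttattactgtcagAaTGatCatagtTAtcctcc
Igkv6-17: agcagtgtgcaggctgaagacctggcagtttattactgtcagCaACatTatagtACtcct

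The last set was not compared and carries no capitals. Igkv8-30 (chr6:70067269-70067328), Igkv12-41 (chr6:69808570-69808629), Igkv5-48 (chr6:69676572-69676631) and Igkv8-21 (chr6:70265062-70265121), all on the minus strand, were each high in a single sample of a group. Igkv5-39 (chr6:69850418-69850477, minus strand) and Igkv9-129 (chr6:67790101-67790160, plus strand) passed the test between WT populations.
Igkv8-30: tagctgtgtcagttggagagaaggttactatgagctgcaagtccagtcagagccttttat
Igkv12-41: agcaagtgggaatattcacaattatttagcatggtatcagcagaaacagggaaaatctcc
Igkv5-48: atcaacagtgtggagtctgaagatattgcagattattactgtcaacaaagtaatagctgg
Igkv8-21: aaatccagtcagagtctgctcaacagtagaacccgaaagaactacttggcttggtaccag
Igkv5-39: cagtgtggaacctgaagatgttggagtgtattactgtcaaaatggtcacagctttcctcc
Igkv9-129: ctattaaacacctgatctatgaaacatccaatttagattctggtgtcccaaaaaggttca

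Between 72.2% and 84% of all probes were well above background in a channel, and no kappa probe was saturated. Replicate channels correlated at 0.939 to 0.963 in KO MPPs, 0.907 to 0.927 in WT MPPs, 0.873 to 0.909 in KO HSCs and 0.841 to 0.869 in WT HSCs (Pearson, over the probes kept). One Bmi1 probe, A_55_P2170335, had ratios of 0.23, -0.69 and 0.48 on the MPP arrays and -0.39, -2.42 and -0.50 on the HSC arrays. The other, A_52_P39157, had 0.93, 0.70 and -0.05 on the MPP arrays and 0.11, -1.66 and 1.36 on the HSC arrays. Neither probe checks the labels, since the deletion is not described, and KO below means the channel labelled so. All 7 MPP markers were higher in MPPs within either dye, with a median difference of 2.89 in the KO channel and 3.03 in the WT channel, and 2 passed the test in each. The 12 HSC markers had a median of -1.01 in the KO channel, where Vwf alone passed, and -0.85 in the WT channel, where none passed.

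Igkc, the constant region, was among the brightest probes in MPPs and uneven between HSC samples. Its level was 16.74, 16.17 and 15.89 in KO MPPs and 14.12, 7.28 and 12.93 in KO HSCs. It was 15.18, 13.04 and 16.20 in WT MPPs and 6.38, 6.08 and 12.44 in WT HSCs. Within each dye every MPP sample was above every HSC sample. KO HSC 2, WT HSC 1 and WT HSC 2 were low, while KO HSC 1, KO HSC 3 and WT HSC 3 were high.

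Igkc averaged 16.26 ± 0.43 in KO MPPs and 11.44 ± 3.65 in KO HSCs (SD, n = 3 each). It averaged 14.81 ± 1.61 in WT MPPs and 8.30 ± 3.59 in WT HSCs (SD, n = 3 each). With this spread the differences did not pass the test: 4.82 ± 1.66 in the KO channel (log2 ± SE, limma adjusted p = 0.359) and 6.51 ± 1.83 in the WT channel (limma adjusted p = 0.258).

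The ratio of Igkc was -0.62, 1.15 and -1.87 on the MPP arrays and 5.82, 0.38 and -0.96 on the HSC arrays. Neither population had the same sign on all arrays, and HSC array 1 stood far above the other HSC arrays. The mean ratio was -0.44 ± 1.28 in MPPs (limma adjusted p = 0.999) and 1.74 ± 1.28 in HSCs (limma adjusted p = 0.745). Here and below, a p above the threshold does not show that the groups were alike. In bulk samples, fewer cells with kappa RNA and less of it per cell cannot be told apart.

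A second probe named Igkc (A_55_P2208727, chr6:70690489-70690548, plus strand) was low nearly throughout. By position it lies downstream of the first Igkc probe and does not overlap it. It had 7.03, 7.02 and 9.50 in KO MPPs and 6.94, 7.19 and 6.76 in KO HSCs, and 6.24, 6.86 and 6.29 in WT MPPs and 6.19, 6.16 and 6.48 in WT HSCs. Its order of samples was not that of the first Igkc probe. Whether both probes read the same transcripts was not tested.

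One Igkv4-53 probe (A_55_P2130799, chr6:69413673-69413732, minus strand) is described in the file as constant region sequence. By position it lies among V segments, 1263 kb from the first Igkc probe and on the other strand. It is therefore not read as a level of the constant region. It had 10.67, 11.79 and 9.20 in KO MPPs and 6.06, 6.44 and 6.31 in KO HSCs, and 11.34, 6.78 and 10.65 in WT MPPs and 5.93, 5.97 and 5.87 in WT HSCs. No HSC sample was well above background, so the probe was kept for testing only through the MPP groups where it was high. It was at least 16.3-fold higher in MPPs in the KO channel (limma adjusted p = 0.0676) and at least 11.2-fold in the WT channel (limma adjusted p = 0.285). Such bounds set the mean of the bright group against the lowest signal well above background on each array of the dim group.

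**Figure D1:**
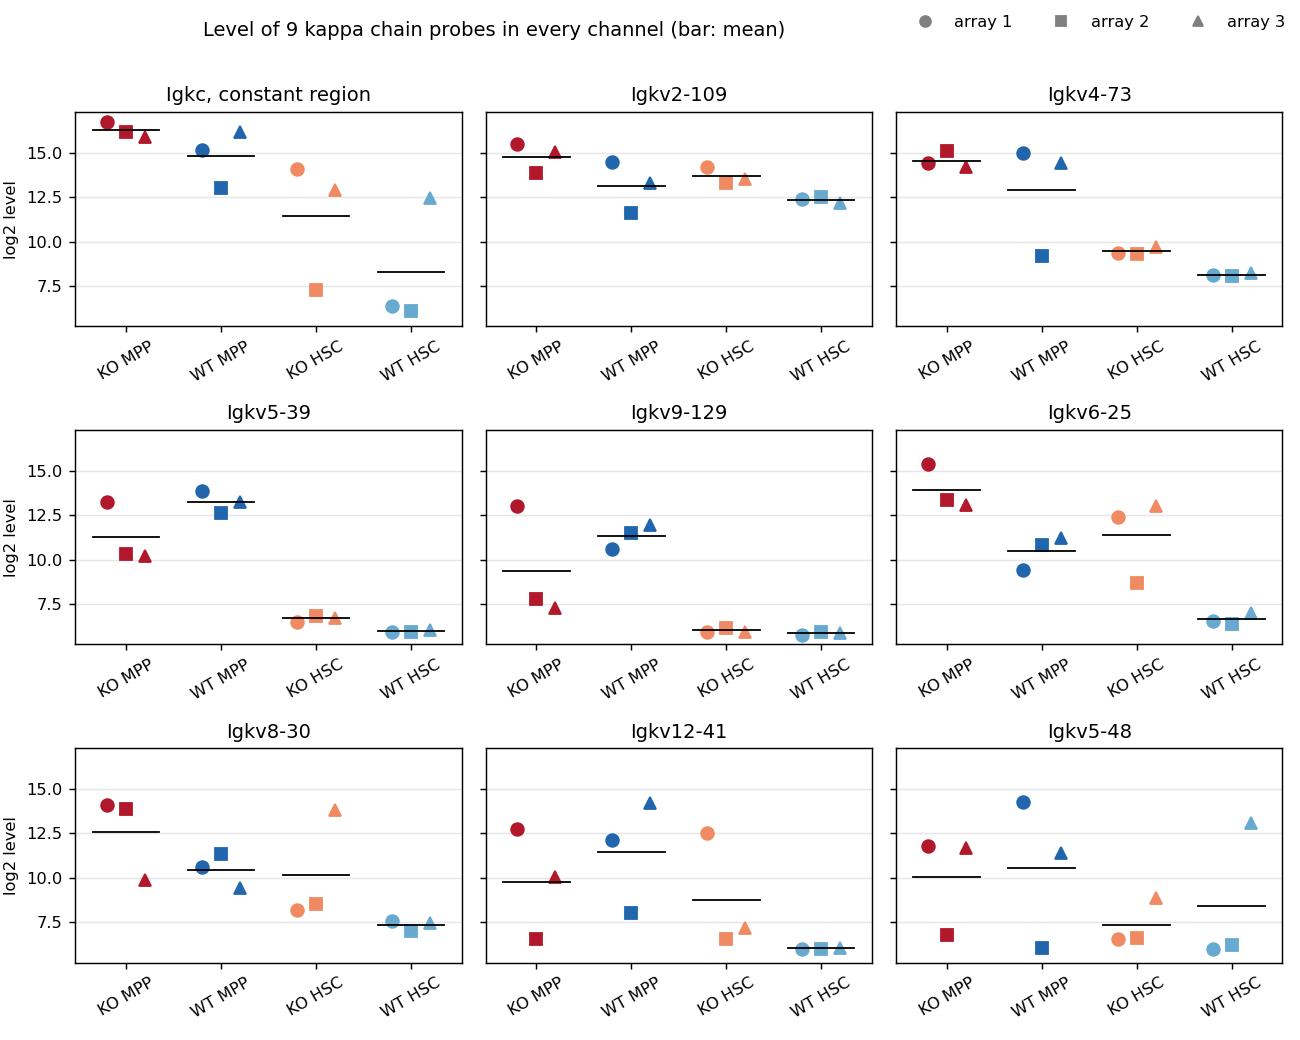
Log2 level (vertical axis) of 9 kappa probes in each sample of KO MPP, WT MPP, KO HSC and WT HSC, with a symbol per array and a bar at the group mean (n = 3). Levels are comparable within a dye. Igkc spans 6.08 to 16.74, and among HSC samples Igkv8-30, Igkv12-41 and Igkv5-48 are each highest in 1 sample.

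Kappa probes were mostly higher in MPPs than in HSCs within either dye. Testing kept the probes well above background on all 3 arrays of at least 1 group, which were 82 of the 94 kappa probes and 44641 of all probes. A probe that passes this filter only through the group where it is high had to differ, so the counts describe the probes kept. In the KO channel 82 of 82 were higher in MPPs, with a median difference of 2.67 (quartiles 1.65 and 3.61) and a median over all probes of -0.08. In the WT channel 78 of 82 were higher, with a median of 3.25 (quartiles 1.88 and 4.43) and a median over all probes of -0.08.

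Fewer probes passed singly. In the KO channel 17 of 82 passed at an adjusted p under 0.05 (limma), all higher in MPPs, and 0.352% of all probes passed. In the WT channel 8 of 82 passed, all higher in MPPs, and 0.282% of all probes passed. Every MPP level was above every HSC level for 53 of 82 in the KO channel, where 8.36% of all probes did so, and for 48 of 82 in the WT channel, where 8.24% did so.

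The counts leaned on single arrays, as did those over all probes. With all arrays 157 probes in all passed in the KO channel and 126 in the WT channel. In the KO channel 6, 7 and 8 kappa probes passed without HSC arrays 1, 2 and 3, and 7 without MPP array 1. Over all probes 81, 56 and 129 passed without those HSC arrays, and 36 without MPP array 1. In the WT channel 0 kappa probes and 0 probes in all passed without HSC array 1, HSC array 3 or MPP array 3. Without HSC array 2, 3 kappa probes and 32 probes in all passed there, and without MPP array 1, 4 and 5. Without MPP array 2, 38 of 90 kappa probes kept and 113 probes in all passed. With slide row as a covariate, which sets MPP array 1 against the HSC arrays of its row, 0 passed in either channel, and the medians were 3.91 in the KO channel and 4.01 in the WT channel. The other row holds no HSC array.

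**Figure D2:**
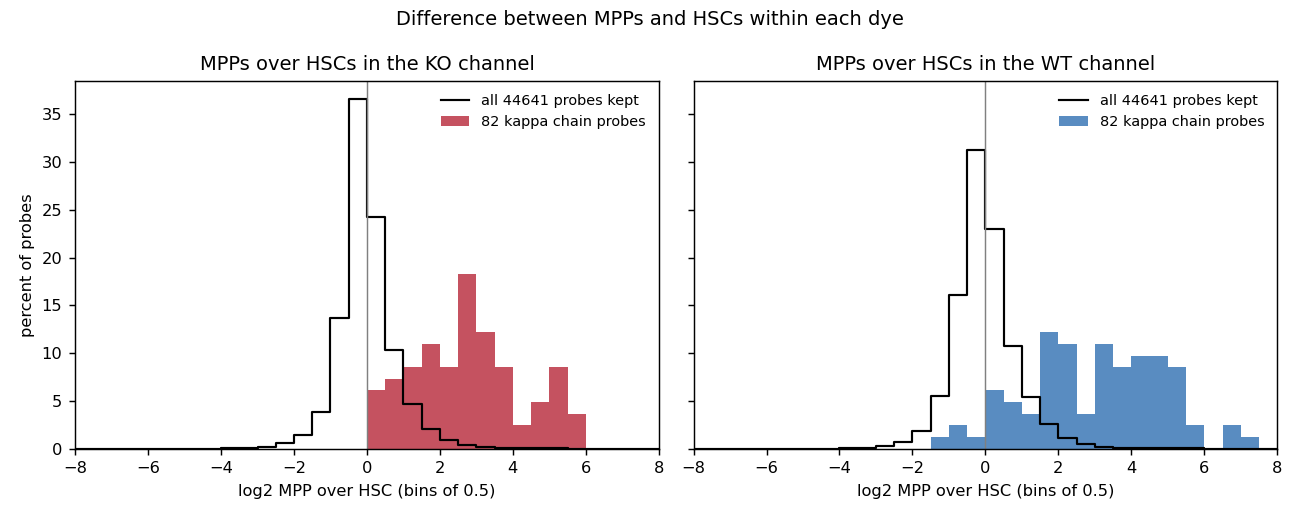
Log2 difference of MPPs over HSCs (horizontal axis, bins of 0.5) in the KO channel (left) and the WT channel (right), as a percent of probes (vertical axis). Bars are the 82 kappa probes kept and the black line all 44641 probes kept. The kappa medians are 2.67 and 3.25, against -0.08 over all probes in both panels.

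In the KO channel 11 of the 17 passing probes were named for subgroup 4, of which 18 probes were kept. The largest difference was at another Igkv4-53 probe (A_55_P2103948, chr6:69598826-69598885, minus strand), with 14.01, 14.45 and 13.04 in KO MPPs and 8.06, 8.01 and 7.63 in KO HSCs, a difference of 5.93 ± 0.41 (limma adjusted p = 0.0055). U18580 had 13.69, 14.12 and 12.49 in KO MPPs and 7.82, 8.02 and 7.78 in KO HSCs, a difference of 5.56 ± 0.44 (limma adjusted p = 0.00943). In both probes every KO MPP sample lay far above every KO HSC sample, and the KO HSC samples were close together.

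Igkv4-91 had 11.44, 12.44 and 13.04 in KO MPPs and 6.78, 6.63 and 6.82 in KO HSCs, a difference of 5.56 ± 0.43 (limma adjusted p = 0.00858). Igkv10-94 had 12.91, 11.82 and 9.95 in KO MPPs and 6.14, 6.19 and 6.31 in KO HSCs. As no KO HSC sample was well above background there, it was at least 32.8-fold higher in KO MPPs (limma adjusted p = 0.049). The filter kept Igkv4-91 and Igkv10-94 only through the MPP groups where they were high. Their passing is therefore only a description.

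In the WT channel none of the 8 passing probes was of subgroup 4, and 3 were of subgroup 9, of which 4 probes were kept. Igkv5-39 had 13.88, 12.63 and 13.27 in WT MPPs and 5.95, 5.92 and 6.07 in WT HSCs, at least 143-fold higher (limma adjusted p = 0.0101). Igkv9-124 had 11.50, 11.79 and 12.32 in WT MPPs and 5.92, 5.94 and 5.92 in WT HSCs, at least 54.3-fold higher (limma adjusted p = 0.0101). The WT HSC samples of both were not well above background.

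Igkv9-129 had 10.60, 11.51 and 11.97 in WT MPPs and 5.78, 5.92 and 5.90 in WT HSCs, at least 38.2-fold higher (limma adjusted p = 0.0182). Igkv9-120 had 12.11, 13.09 and 13.63 in WT MPPs and 6.07, 6.54 and 6.37 in WT HSCs, a difference of 6.62 ± 0.43 (limma adjusted p = 0.0182). No probe passed in both channels, but passing in 1 channel does not show that the difference was absent in the other. Subgroup 4 had a median difference of 3.96 in the KO channel and 3.36 in the WT channel, and subgroup 9 had 3.92 and 5.72. The Igkv4-53 probe A_55_P2103948 had 5.54 ± 1.31 in the WT channel (limma adjusted p = 0.215). Igkv9-120 had 5.19 ± 0.89 in the KO channel (limma adjusted p = 0.104). The test of whether the population difference itself differs between KO and WT is that of the ratios, and it passed at no kappa probe.

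V segments differed between samples of the same group, most clearly in MPPs. Over the kappa probes kept, replicate channels correlated at 0.661 to 0.746 in KO MPPs, 0.383 to 0.848 in WT MPPs, 0.775 to 0.789 in KO HSCs and 0.842 to 0.977 in WT HSCs (Pearson). These ranges lay below those over all probes kept, except in WT HSCs, where all probes had 0.841 to 0.869. Subgroup 4 had a median level of 12.55, 13.98 and 12.87 in KO MPPs and 8.72, 8.86 and 8.58 in KO HSCs, and of 13.41, 8.44 and 13.23 in WT MPPs and 7.54, 7.58 and 7.75 in WT HSCs. WT MPP 2 was low for it.

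Subgroup 9 had other low samples. Its median level was 13.20, 10.68 and 9.82 in KO MPPs and 11.23, 11.65 and 12.14 in WT MPPs, so that KO MPP 2 and 3 were low. Subgroup 14 had 13.38, 9.54 and 11.40 in KO MPPs and 14.22, 8.44 and 13.89 in WT MPPs. Subgroup 1 had 14.64, 12.43 and 13.49 in KO MPPs and 14.53, 8.73 and 13.23 in WT MPPs. Sample 2 was the lowest of its group for both of these subgroups in either genotype.

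**Figure D3:**
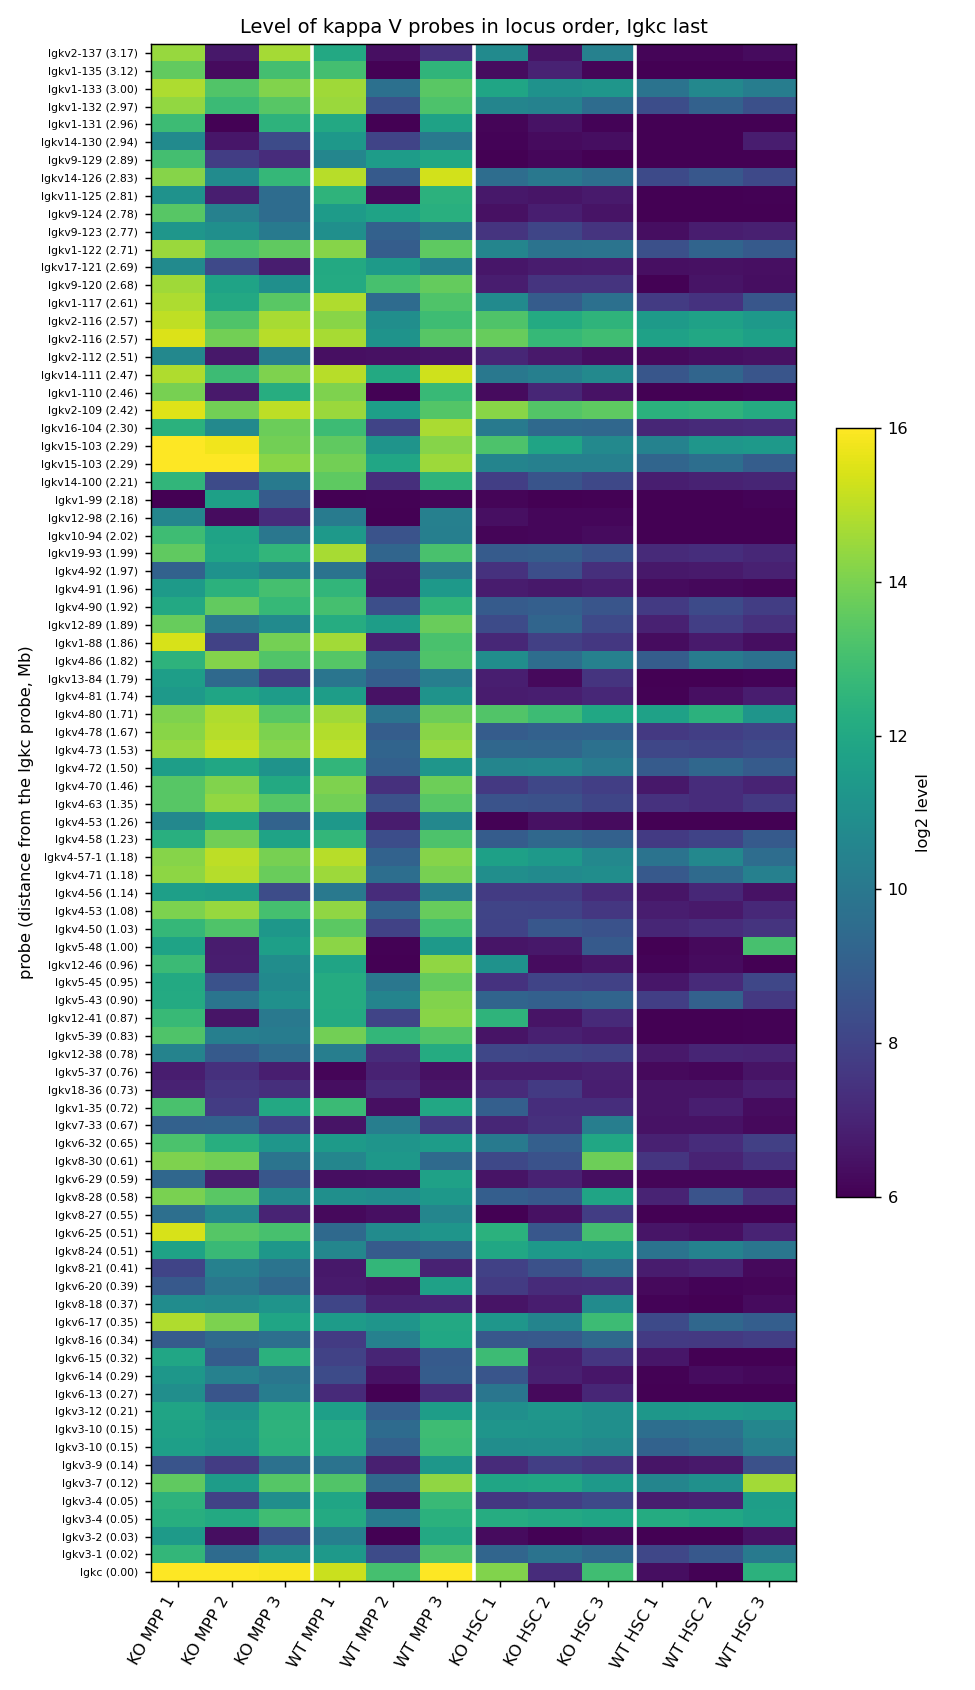
Log2 level (colour) of kappa V probes (rows, in locus order with the distance to the Igkc probe in Mb) in 12 channels (columns), with Igkc in the last row. Blocks run KO MPP, WT MPP, KO HSC and WT HSC. Subgroup 4 rows are dark in WT MPP 2, and bright single cells stand out in KO HSC 1, KO HSC 3 and WT HSC 3.

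No kappa probe passed for KO over WT. In MPPs 0 of 82 passed and 0% of all probes passed (limma), with 19 kappa probes and 2148 probes in all at an unadjusted p under 0.05. In HSCs 0 of 82 and 0% of all passed, with 4 kappa probes and 3278 in all at that level. For the MPP effect minus the HSC effect 0 of 82 and 0% of all passed, with 10 kappa probes and 1853 in all at that level. The median ratio was -0.31 in MPPs, with 27 of 82 positive, and -0.05 in HSCs, with 34 of 82 positive. These splits depended on the scaling: with median centring the median was 0.05 in MPPs, with 41 of 82 positive, and 0.14 in HSCs, with 46 of 82 positive.

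In MPPs that median hid opposite arrays. The array medians were -1.13, 1.05 and -2.0 on the MPP arrays and 0.10, -0.05 and -0.16 on the HSC arrays. A ratio beyond 4-fold in either direction was found for 32.9%, 53.7% and 54.9% of kappa probes on the MPP arrays, where 0.621%, 7.54% and 4.99% of all probes reached it. On the HSC arrays the shares were 6.1%, 0% and 13.4% of kappa probes and 2.84%, 11.9% and 9.41% of all probes. Without MPP array 2 the median was -1.77 in MPPs, and -1.67 for the MPP effect minus the HSC effect, in place of -0.36 with all arrays.

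Subgroup 4 had opposite signs on different MPP arrays. Its 18 probes, taken by name here, in the pairs and in the plots, include the Igkv4-53 probe described as constant region. The median ratio of its 18 probes was -2.23, 4.16 and -1.98 on MPP arrays 1, 2 and 3, with 1, 18 and 1 positive, and -0.09, -0.09 and -0.30 on the HSC arrays. Subgroup 9 had medians of 0.69, -2.98 and -4.30 on the MPP arrays, and subgroup 5 had -1.49, -2.72 and -4.57. Subgroups 6 and 8 were positive on MPP arrays 1 and 2, at 1.79 and 1.19 for subgroup 6 and 1.36 and 1.12 for subgroup 8, and negative on MPP array 3, at -1.09 and -1.08.

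On HSC arrays most subgroup medians were near 0. Subgroup 6 had 1.66, 0.23 and 0.74. Subgroup 8 had -0.13, 0.11 and 2.19, with 7 of 7 probes positive on HSC array 3, while subgroup 3 had -0.28, -0.25 and -1.79, with 0 of 8 positive on that array. HSC array 3 thus held both signs.

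**Figure D4:**
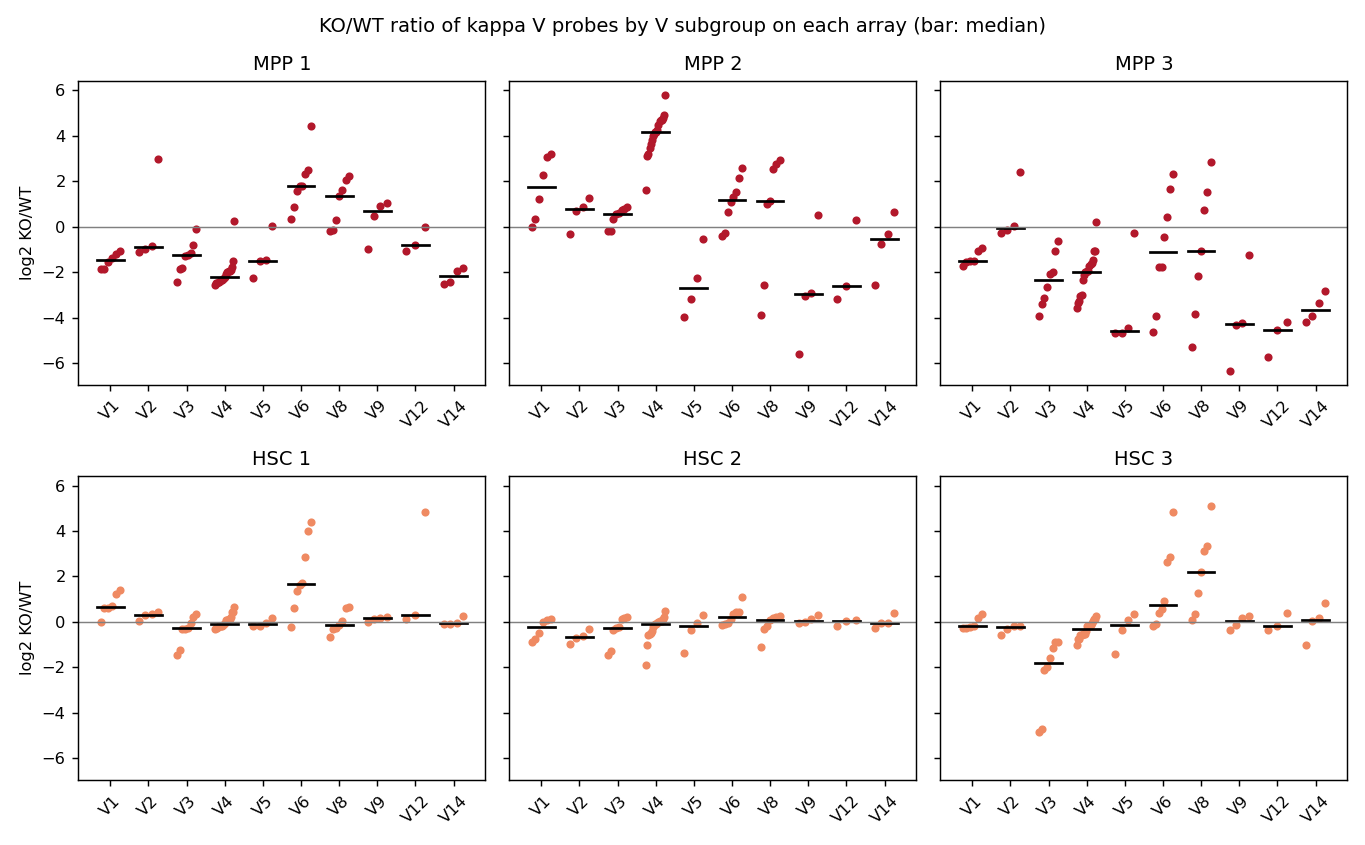
Log2 ratio of KO over WT (vertical axis) of each kappa V probe kept, by V subgroup (horizontal axis), on the MPP arrays (upper row) and the HSC arrays (lower row), with a bar at the subgroup median. Subgroup 4 has medians of -2.23, 4.16 and -1.98 on MPP arrays 1, 2 and 3, and lies near 0 on the HSC arrays.

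The 3 kappa probes with the smallest p in MPPs had a negative ratio on every MPP array. Igkv17-121 had -2.62, -5.08 and -5.33 on the MPP arrays and -0.59, -0.33 and -0.25 on the HSC arrays, with an MPP mean of -4.34 ± 0.53 (limma adjusted p = 0.865). Igkv5-39 had -2.24, -3.98 and -4.66 on the MPP arrays and 0.17, 0.33 and 0.10 on the HSC arrays, with an MPP mean of -3.63 ± 0.46 (limma adjusted p = 0.865). Igkv14-130 had -1.84, -2.56 and -3.36 on the MPP arrays and 0.26, -0.06 and -1.01 on the HSC arrays, with an MPP mean of -2.58 ± 0.39 (limma adjusted p = 0.992). These probes also had the smallest p for the MPP effect minus the HSC effect, and none passed (limma adjusted p = 0.968 each). Their HSC ratios rest largely on signals near background. Igkv17-121 was well above background in 1 of 3 KO HSC and 3 of 3 WT HSC samples, Igkv5-39 in 1 and 0 of 3, and Igkv14-130 in 0 and 1 of 3.

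In HSCs the smallest p belonged to Igkv3-12, Igkv6-25 and an Igkv3-4 probe. Igkv3-12 had ratios of -1.45, -1.47 and -1.60 on the HSC arrays and -1.16, 0.74 and -0.61 on the MPP arrays, with an HSC mean of -1.51 ± 0.38 (limma adjusted p = 0.673). The Igkv3-4 probe (A_55_P2183369) had -1.22, -1.29 and -1.16 on the HSC arrays and -1.23, 0.59 and -1.06 on the MPP arrays, with an HSC mean of -1.22 ± 0.39 (limma adjusted p = 0.673). Both were well above background in all channels and nearly even over HSC arrays. The other Igkv3-4 probe (A_52_P502849) was not even, with -0.29, -0.24 and -4.84 on the HSC arrays. With the dyes never exchanged, a dye effect of a probe and an effect of genotype cannot be told apart in a ratio.

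Igkv6-25 had a positive ratio on all 6 arrays. It was 4.41, 1.09 and 0.42 on the MPP arrays and 3.99, 1.08 and 4.83 on the HSC arrays, with an HSC mean of 3.30 ± 0.96 (limma adjusted p = 0.673). Its level was 15.39, 13.37 and 13.08 in KO MPPs and 12.38, 8.71 and 13.02 in KO HSCs, and 9.41, 10.83 and 11.20 in WT MPPs and 6.55, 6.40 and 6.98 in WT HSCs. KO HSC 1 and 3, high in Igkc, were high here too, and WT HSC 3, high in Igkc, was not.

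Some V segments were high in a single sample of a group. The V segments named for a high level in a single sample were chosen after their values were seen. A level at least 16-fold above both other samples of its group was found for 14 of the 1128 kappa values (1.24%), where 0.058% of all values were so. In KO HSC 1 these were Igkv12-41 at 12.50, where the next KO HSC sample had 7.18, Igkv6-15 at 12.87, where the next had 7.57, and Igkv12-46 at 11.09, where the next had 6.55. Igkv6-13, whose probe is close in sequence to that of Igkv6-15, had 9.93, 6.24 and 7.09 in KO HSCs.

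KO HSC 3 and WT HSC 3 were high in others. In KO HSC 3 Igkv8-30 stood at 13.81, where the next KO HSC sample had 8.5, and Igkv8-18 at 10.82, where the next had 6.81. In WT HSC 3 Igkv5-48 stood at 13.07, where the next WT HSC sample had 6.23, an Igkv3-4 probe (A_52_P502849) at 11.61, where the next had 6.96, and Igkc at 12.44, where the next had 6.38. No such value was found among the 94 kappa probes in KO HSC 2, WT HSC 1 or WT HSC 2, the HSC samples low in Igkc. Over all probes the shares there were 0.113%, 0.0809% and 0.126%. At such low shares, finding none among 94 probes is not read as a result. In KO HSC 1, KO HSC 3 and WT HSC 3 the shares over all probes were 0.0665%, 0.0683% and 0.149%.

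MPP samples held 6 of the 14. Igkv9-129 stood at 13.02 in KO MPP 1, where the next KO MPP sample had 7.82. Igkv2-137 stood at 12.04 in WT MPP 1, where the next WT MPP sample had 7.43, and Igkv8-21 at 12.63 in WT MPP 2, where the next had 6.97. In WT MPP 3 they were Igkv6-29 at 11.71, Igkv6-20 at 11.74 and Igkv8-27 at 10.60, where the next samples had 6.42, 6.73 and 6.41.

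Probes of the same subgroup deviated together in some subgroups and not in others. The deviations of a probe's 12 levels from its group means had a median Pearson r of 0.891 over 273 pairs of the same subgroup and 0.427 over 2577 pairs of different subgroups, given as a description since all pairs share the samples. The median was 0.925 over 153 pairs in subgroup 4, 0.907 over 15 in subgroup 1 and 0.888 over 28 in subgroup 3. It was 0.666 over 6 pairs in subgroup 9, 0.283 over 28 in subgroup 6 and 0.083 over 21 in subgroup 8.

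Probe similarity was read beside this. Pairs of the same subgroup with at least 45 matching bases had a median r of 0.953 (23 pairs), and those with fewer had 0.884 (250 pairs). Pairs of different subgroups had 0.422 with at least 45 matching bases (9 pairs) and 0.427 with fewer (2568 pairs). Igkv4-73 and Igkv4-78 had 0.997, Igkv8-28 and Igkv6-17 had 0.967, and Igkv8-28 and Igkv6-15, which matched at 47 of 60 bases, had -0.349. The part of cross-hybridisation in these values was not tested.

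The 8 kappa probes with the highest mean level over the 12 channels were Igkv2-109, both Igkv2-116 probes, ENSMUST00000103301, Igkv4-80, an Igkv15-103 probe, Igkc and Igkv3-7. All but Igkc, which was low in KO HSC 2, WT HSC 1 and WT HSC 2, were well above background in every channel. Igkv2-109 had 15.50, 13.86 and 15.02 in KO MPPs and 14.23, 13.32 and 13.51 in KO HSCs, and 14.50, 11.63 and 13.31 in WT MPPs and 12.39, 12.51 and 12.17 in WT HSCs. It was the brightest kappa probe of WT HSC 1 and 2, where Igkc was low, and its MPP and HSC samples overlapped in both dyes.

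ENSMUST00000103301 had 15.09, 12.91 and 14.86 in KO MPPs and 13.61, 12.56 and 13.01 in KO HSCs, and 14.21, 11.01 and 12.73 in WT MPPs and 11.85, 11.91 and 11.31 in WT HSCs. Its deviations had an r of 0.984 with those of Igkv2-109. The Igkv2-116 probe printed above had 15.46, 13.87 and 14.93 in KO MPPs and 13.67, 12.70 and 12.93 in KO HSCs, and 14.68, 11.13 and 13.39 in WT MPPs and 11.74, 12.01 and 11.68 in WT HSCs. The other (A_55_P2117342) had 15.05, 13.27 and 14.70 in KO MPPs and 13.23, 12.12 and 12.50 in KO HSCs, and 14.22, 10.92 and 12.91 in WT MPPs and 11.44, 11.73 and 11.43 in WT HSCs. For these 4 probes the difference of MPPs over HSCs was 1.11 to 1.72 in the KO channel and 0.79 to 1.26 in the WT channel, and none passed.

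Igkv4-80 was bright in HSCs too, with 14.06, 14.81 and 13.36 in KO MPPs and 13.30, 12.85 and 11.97 in KO HSCs, and 14.57, 9.85 and 13.77 in WT MPPs and 11.72, 12.44 and 11.21 in WT HSCs. The Igkv15-103 probe (A_55_P2132533) had 16.26, 15.77 and 13.86 in KO MPPs and 13.19, 11.84 and 10.72 in KO HSCs, and 13.55, 11.19 and 14.17 in WT MPPs and 10.43, 11.26 and 11.38 in WT HSCs. Igkv3-7 had 13.54, 11.52 and 13.37 in KO MPPs and 11.88, 11.97 and 11.42 in KO HSCs, and 13.29, 9.38 and 14.32 in WT MPPs and 10.57, 11.02 and 14.62 in WT HSCs. WT MPP 2 was the lowest WT MPP sample for all 3.

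The 12 kappa probes not kept were well above background on all 3 arrays of no group. Those of Igkv4-55, Igkv6-15 and Igkv4-53 that had no position were low in every channel. The other 9 were high in some but not all samples of at least 1 MPP group, with examples chosen after their values were seen, as Igkv2-137 with 14.45, 6.66 and 14.64 in KO MPPs, and Igkv1-110 with 13.96, 6.69 and 12.25 in KO MPPs and 14.06, 6.08 and 12.73 in WT MPPs. Sample 2 was the low one in each of these groups.

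The other immunoglobulin chains had the same direction. Of 45 heavy chain probes, 43 were higher in MPPs in the KO channel (18 passing, median 4.0) and 41 in the WT channel (10 passing, median 4.21). Of 6 lambda chain probes, 5 were higher in the KO channel and 6 in the WT channel, with 2 passing and a median of 4.24 in each. Their median ratio of KO over WT in MPPs was -0.14 for heavy and -0.69 for lambda chain probes, and none passed.

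Genes of plasma cells were read because those cells are rich in kappa RNA. Of 11, 7 were higher in MPPs in either channel, with medians of 0.47 in the KO channel and 0.32 in the WT channel. The summed level of the 11 was 14.08 to 14.46 in KO MPPs and 13.62 to 13.90 in KO HSCs, and 12.22 to 13.57 in WT MPPs and 12.01 to 12.34 in WT HSCs. Jchain, which joins secreted IgM and IgA, alone passed, in the KO channel, with 12.67, 11.52 and 11.60 in KO MPPs and 7.13, 6.73 and 8.47 in KO HSCs, a difference of 4.49 ± 0.55 (limma adjusted p = 0.0419). In the WT channel Jchain had 12.76, 9.70 and 12.02 in WT MPPs and 5.95, 6.41 and 6.23 in WT HSCs, a difference of 5.29 ± 0.77 (limma adjusted p = 0.0765). The filter kept Jchain only through the MPP groups where it was high.

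Sdc1 and Mzb1 of that list were singled out after their values were seen. Sdc1, the plasma cell surface protein syndecan 1, had 11.33, 11.33 and 11.12 in KO MPPs and 9.60, 7.71 and 9.71 in KO HSCs, and 8.90, 9.79 and 10.26 in WT MPPs and 7.11, 6.87 and 8.67 in WT HSCs. KO HSC 2, WT HSC 1 and WT HSC 2 were its low HSC samples, as for Igkc, and its r with Igkc was 0.951 (mean of both dyes, 6 arrays each). The difference of MPPs over HSCs was 2.25 ± 0.55 in the KO channel (limma adjusted p = 0.214) and 2.10 ± 0.59 in the WT channel (limma adjusted p = 0.258). Mzb1, a chaperone of antibody-secreting cells, had 2.45 ± 0.51 in the KO channel (limma adjusted p = 0.158) and 1.58 ± 0.26 in the WT channel (limma adjusted p = 0.0992). Other genes of the list went the other way, and none of them passed. Xbp1 had -0.15 in the KO channel and -0.78 in the WT channel, and Prdm1 had -0.34 and -0.68. Tnfrsf17 and Txndc5 were lower in MPPs in the KO channel only, and Derl3 and Fkbp11 in the WT channel only.

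Of 18 early B lineage genes, 17 were higher in MPPs in the KO channel (3 passing, median 3.42) and 15 in the WT channel (2 passing, median 0.46). Their summed level was 16.23 to 18.12 in KO MPPs and 15.37 to 15.89 in KO HSCs, and 14.01 to 14.29 in WT MPPs and 13.43 to 14.13 in WT HSCs. The brightest genes weigh most in such a sum, and Cd24a alone had 14.63 to 15.16 in KO HSCs and 11.72 to 13.49 in WT HSCs. All 18 had a positive ratio of KO over WT in MPPs, with a median of 2.35 and none passing, where 49.6% of all probes were positive. The kappa median there was -0.31, or 0.05 with median centring.

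Rag2, a subunit of the recombinase that joins V to J, passed in both channels. It had 10.98, 12.41 and 12.73 in KO MPPs and 6.52, 6.64 and 6.19 in KO HSCs (limma adjusted p = 0.0123). It had 9.17, 8.69 and 9.22 in WT MPPs and 5.98, 5.75 and 6.04 in WT HSCs (limma adjusted p = 0.0218). No HSC sample was well above background for Rag2. The filter thus kept it only through the MPP groups where it was high, and no size of the difference is given. Dntt, which adds bases at the junctions, also passed in both, with differences of 3.59 ± 0.29 in the KO channel (limma adjusted p = 0.00943) and 2.76 ± 0.33 in the WT channel (limma adjusted p = 0.049).

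Pax5, a factor that commits cells to the B lineage, passed in the KO channel and not in the WT channel, and the test of the MPP effect minus the HSC effect passed at no probe. Pax5 had 12.96, 14.37 and 14.84 in KO MPPs and 9.76, 9.95 and 9.25 in KO HSCs (limma adjusted p = 0.0383), and 8.25, 8.04 and 10.32 in WT MPPs and 8.09, 8.91 and 8.30 in WT HSCs (limma adjusted p = 0.786).

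Of 16 mature B cell genes 13 were measured, with medians of 0.81 in the KO channel, where none passed, and 0.22 in the WT channel, where H2-Ab1, an MHC class II chain, alone passed. Their summed level was 16.55 to 16.94 in KO MPPs and 16.25 to 16.72 in KO HSCs, and 14.98 to 15.28 in WT MPPs and 14.96 to 15.20 in WT HSCs. Among the brightest genes of that list, Cd22 and Cr2 were lower in MPPs in both channels and Cd37 was higher. Of 20 regulators of the kappa locus 19 were measured, with medians of 0.56 in the KO channel, where Rag2 and Pax5 passed, and 0.65 in the WT channel, where Rag2 passed. T cell genes had medians of -0.15 in the KO channel and -0.20 in the WT channel, granulocyte genes 2.13 and 0.74, and erythroid genes 1.00 and -0.74, with none passing. The part of these cell types in the kappa levels was not tested.

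**Figure D5:**
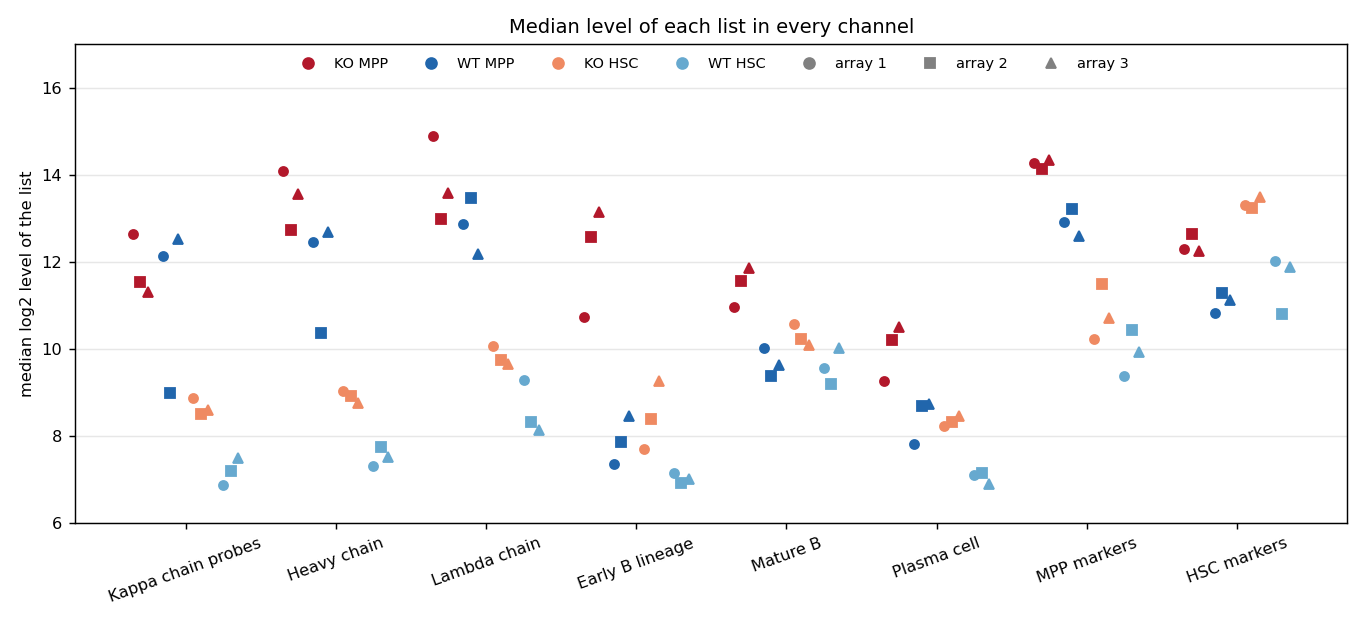
Median log2 level (vertical axis) of each list (horizontal axis) in each sample, in the order KO MPP, WT MPP, KO HSC and WT HSC, with a symbol per array. Levels are comparable within a dye. The kappa medians are 11.30 to 12.64 in KO MPPs and 8.49 to 8.88 in KO HSCs, and 8.98 to 12.53 in WT MPPs and 6.87 to 7.48 in WT HSCs.

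The names outside immunoglobulin whose levels were most like those of Igkc were ranked by the Pearson r over the 6 arrays within each dye, averaged over both dyes. They were Slc2a1, a glucose transporter, at 0.973, a long noncoding RNA probe (A_30_P01020578) at 0.972, Gm6340 at 0.970, Gm6531 at 0.966 and an unnamed probe (A_55_P2153141) at 0.965. Slc2a1 had 9.65, 9.89 and 9.69 in KO MPPs and 9.45, 7.87 and 8.96 in KO HSCs, and 7.85, 7.23 and 8.56 in WT MPPs and 6.23, 6.09 and 7.73 in WT HSCs. It shared the low samples of Igkc among HSCs, over a narrower range.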

How the data were processed

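RNA of Bmi1 KO and WT HSCs and MPPs was measured on 6 arrays, grouped by the labels. Per the file headers, the deposited files hold the mean intensity and local background intensity of each spot, written by Feature Extraction, Agilent's image software. Its version is 10.7.3.1 there but 8.5.1.1 per the submitters' processing notes, a disagreement not settled here. The deposited processed intensity was background-subtracted and dye-normalized by that software, and the deposited log ratio is a log10 of red over green, per the file headers; both served as an alternative.

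Of 62976 spots, 3671 were controls, and the spots of a probe were averaged. Signals were corrected with normexp (offset 50) and normalized by loess within an array for ratios and by quantiles within a dye for levels, with limma 3.58.1 in R 4.3.3. lmFit and eBayes were run on all 6 arrays with a mean per population, adjusting by Benjamini-Hochberg over the 44641 probes kept, at a threshold of 0.05. The number of arrays limits the precision. Lists were summed on the linear scale before taking log2, so the brightest genes of a list weigh most. The scripts were tested on simulated data.

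The members and lists were chosen with earlier results of these data known. Named were the probes described as constant region, the 8 brightest kept, and per comparison up to 4 passing probes in each direction with the largest change or, where fewer than 3 passed, the 3 with the smallest p. Probe sequences come from the deposited files. Nothing in the labels pairs same-numbered HSC and MPP arrays, and their deviations correlated weakly, so numbers were not taken as pairs. The search for an octamer motif in V promoters was not run, as their sequences were not used here.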

Additional observations from a re-analysis of the deposited data

Results flagged for a closer look

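Igkv5-39 had a ratio of KO over WT that was negative on every MPP array, at -2.24, -3.98 and -4.66, and positive on every HSC array, at 0.17, 0.33 and 0.10. The MPP mean minus the HSC mean was -3.83, and the test of this difference did not pass (limma adjusted p = 0.968). It stands here because the arrays of the 2 populations had opposite signs. No WT HSC sample and 1 of 3 KO HSC samples were well above background for the probe, so the HSC sign rests on signals near background.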

How the results depend on the processing

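The comparisons were recomputed under the alternatives. No named probe that passed changed sign, and the other passing probes were not followed singly. For MPPs over HSCs in the KO channel, the median was 3.20 with Agilent's processed signals and 3.91 with slide row as a covariate. With no filter on dim probes 9 of 94 kappa probes passed there, and 85 of all 55627. The main analysis had 17 of 82 and 157 of 44641. In the WT channel a stricter filter gave 4 of 64 kappa probes and 96 of all 39958. There the main analysis had 8 of 82 and 126 of 44641. With the replicate number as a block, 0 of 82 kappa probes and 0 of all 44641 passed in either channel. With median centring the median of KO over WT was 0.05 in MPPs (41 of 82 positive), against -0.31, and 0.14 in HSCs (46 of 82 positive), against -0.05, and the MPP effect minus the HSC effect was -0.02, against -0.36. That last median was -1.07 with slide row as a covariate. With Agilent's log ratios the MPP median was -0.13. The cause was not tested.

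Leaving out 1 array at a time gave 6 to 13 passing kappa probes and a median of 1.99 to 3.06 in the KO channel. In the WT channel it gave 0 to 38 kappa probes and a median of 2.77 to 4.34. Over all probes 36 to 129 passed in the KO channel and 0 to 113 in the WT channel. The median of KO over WT was -1.77 to 0.02 in MPPs and -0.12 to 0.02 in HSCs, and that of the MPP effect minus the HSC effect was -1.67 to 0.25, with 0 probes passing in each. Over the alternatives the adjusted p was 0.00341 to 0.131 for the first-named Igkv4-53 probe of the KO channel (A_55_P2103948) and 0.00325 to 0.205 for Igkv5-39 in the WT channel. Igkv10-94 in the KO channel did not pass in 8 of 13 alternatives, and Igkv17-121 in the WT channel in 8 of 14.

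Same-numbered HSC and MPP arrays had correlations of deviations of -0.07, 0.00 and 0.01 for ratios. These were 0.16, 0.04 and 0.11 in the WT channel and 0.04, 0.09 and -0.01 in the KO channel. With 3 arrays per population, such values do not settle whether same-numbered arrays share more than a number. With 3 arrays per population, no dye exchange and rows partly tied to population, small differences could not be resolved.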
